A study of Mus musculus with 17 samples.

Results

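Ly75 encodes DEC-205, the receptor through which germinal centre (GC) B cells were forced to present antigen in this study, and lies on mouse chromosome 2. The description covers Ly75 and 9 genes of the same arm of that chromosome, Zeb2, Baz2b, Cd302, Rbms1, Tank, Psmd14, Cobll1, Cers6 and Rapgef4, which make 10 of the 21848 genes that all gene-expression matrices share. They were selected on measured values of the same data, namely the treatment difference in UMIs per mouse of the experiments compared here: Zeb2, Cers6 and Rapgef4 were among the largest of these differences, and the others were taken for their position near Ly75. These treatment differences are therefore a description. Where a call or rank from the fit is given for them, it places a member among all genes and supports nothing. The question asked of them was whether a treatment difference was shared by genes near Ly75.

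DEC-205 is a large endocytic receptor of the mannose receptor family. It is best known from dendritic cells, where it delivers captured material to endosomes for presentation on MHC class II, and it is also carried by B cells of the GC. An antibody to DEC-205 that is fused to ovalbumin (anti-DEC-OVA) uses this route, so that B cells with the receptor show ovalbumin peptides to follicular helper T cells, receive help and divide in the dark zone. The receptor's gene can be removed without stopping GC formation, and cells with and without it can then compete in the same GC.

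The recipients were wild-type CD45.1 mice that had been primed with ovalbumin and were immunized with NP-OVA after transfer of B1-8hi B cells, which carry a heavy chain specific for the hapten NP. Of the transferred cells, by the study's methods, a minority expressed DEC-205 together with tetracycline-controlled H2B-mCherry (a Col1a1 tetO allele driven by a Vav-tTA transgene, active throughout blood cells), and the majority were Ly75-/-. Untreated groups at day 7, day 9 and day 10 after immunization received no anti-DEC-OVA, and the groups labelled with DEC received anti-DEC-OVA at day 7 and were taken at day 9 (Day9DEC, 48 h) or day 10 (Day10DEC, 72 h). In the time course, cells with DEC-205 were the population described by the study, whereas in the first experiment the treated cells were sorted as DEC-205-expressing, mCherry-low B1-8hi cells and the untreated cells as B1-8hi cells. Whether that sort stained DEC-205 or used mCherry as its mark is not given in the sources used here, and sort, genotype and treatment cannot be told apart in the first experiment.

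Cells were profiled by 5′ single-cell RNA sequencing, and unique molecular identifiers (UMIs) were summed per mouse, which is the replicate. The time course held 39 mice in 2 experiments, called here the larger (25 mice, 13625 cells) and the smaller (14 mice, 10073 cells). The first experiment held 9 mice and 10681 cells, and 7 further mice gave paired pools of CDK2hi and CDK2low cells, 7448 and 4385 cells, labelled C and N, which were read as cytoplasmic and nuclear reporter from the study's text. These last came from B1-8hi cells with a DHB-tdTomato reporter in Rosa26, which leaves the nucleus when CDK2 is active, and were taken 72 h after anti-DEC-OVA. Contigs showed the heavy and light chain pairing of the transferred receptor in only 583 of the 10681 cells of the first experiment. Another pair of chains was found in 910 of them, and 9188 lacked a full pair. These classes held 9217, 534 and 3874 cells in the larger and 4372, 219 and 5482 in the smaller experiment. Whether the cells without the pairing carried the transferred receptor was not tested. A mouse of the time course had between 1984426 and 13373185 UMIs, a mouse of the first experiment 349784 to 4728689, and a mouse in a reporter pool 3988733 to 20394909. Levels are CPM, counts relative to the total of the library scaled by the trimmed mean of M values (TMM). Across all groups 8 GC B cell markers summed to between 1650 and 2685 CPM per mouse, against 4.40 to 85.5 CPM for 7 T cell markers and 40.0 to 111 CPM for 10 dendritic or myeloid markers, of which Cd14 was at 0 in every mouse of all groups but Day9DEC. The 6 plasma cell markers summed to 774 to 2552 CPM and the 7 naive or memory B cell markers to 100.3 to 545 CPM. Sums of cell type markers, here and below, are CPM of the library total without TMM scaling. Barcodes were shared between pools for 122 of 46090 distinct barcodes.

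The members span 26.8 megabases (Mb) between the first and the last gene start, an interval with 107 genes in the matrices. In GRCm39, the build named by the submitters, Ly75 lies on the reverse strand at chr2:60122441-60213682, with Cd302 at chr2:60082333-60114832 and Baz2b at chr2:59729707-60040215 just beyond its 3′ end and on the same strand. Cd302, another C-type lectin receptor, starts 0.0989 Mb and Baz2b, a bromodomain subunit of chromatin remodellers, 0.173 Mb from the start of Ly75. On the other side are Rbms1 (chr2:60580537-60793855, reverse strand), which binds single-stranded DNA and RNA, at 0.580 Mb, Tank (chr2:61408929-61484583, forward strand), an adaptor of TRAF proteins and TBK1, at 1.20 Mb, and Psmd14 (chr2:61542026-61631607, forward strand), the deubiquitinase of the proteasome lid, at 1.33 Mb. Farther away are Cobll1 (chr2:64918068-65069747, reverse strand), a cordon-bleu-like actin regulator, at 4.86 Mb, Cers6 (chr2:68691455-68944627, forward strand), a ceramide synthase, at 8.48 Mb, Rapgef4 (chr2:71811328-72089838, forward strand), the cAMP-activated exchange factor EPAC2, at 11.6 Mb, and Zeb2 (chr2:44873644-45007464, reverse strand), a zinc-finger repressor that binds E boxes, 15.2 Mb away on the Baz2b side.

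Promoter sequences of 3 members follow. They are the 250 bases before the start of the annotated canonical transcript of Ly75 (chr2:60213683-60213932, reverse strand), Cers6 (chr2:68691205-68691454, forward strand) and Rapgef4 (chr2:71811078-71811327, forward strand), which are shown because these genes differed in the direction or timing of their treatment difference. Capitals mark CCAAT or, on the other strand, ATTGG.
Ly75: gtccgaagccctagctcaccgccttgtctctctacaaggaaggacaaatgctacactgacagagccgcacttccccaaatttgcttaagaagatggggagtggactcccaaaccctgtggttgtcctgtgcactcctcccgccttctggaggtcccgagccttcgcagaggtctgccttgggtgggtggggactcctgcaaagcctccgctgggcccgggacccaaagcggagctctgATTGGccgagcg
Cers6: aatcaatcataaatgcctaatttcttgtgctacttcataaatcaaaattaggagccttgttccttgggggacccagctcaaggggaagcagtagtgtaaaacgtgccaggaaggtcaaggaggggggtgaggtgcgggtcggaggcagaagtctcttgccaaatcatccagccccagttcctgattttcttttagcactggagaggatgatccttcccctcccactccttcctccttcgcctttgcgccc
Rapgef4: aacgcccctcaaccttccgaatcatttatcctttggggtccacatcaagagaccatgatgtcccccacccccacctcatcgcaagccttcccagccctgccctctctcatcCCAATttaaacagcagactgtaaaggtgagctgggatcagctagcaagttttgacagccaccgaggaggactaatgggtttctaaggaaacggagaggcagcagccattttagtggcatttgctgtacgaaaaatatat
The CCAAT box had 1 match each in Ly75 and Rapgef4 and 0 in Cers6, and 36.5% of all 21705 promoters of this length held it. The E box CACCTG, whose reverse complement is CAGGTG and which ZEB factors bind, was in 17.8% of all promoters and in none of these 3, and of the members only Rbms1 had a match. The GC box GGGCGG (reverse complement CCGCCC) was in 36.3% and the E box CACGTG (its own reverse complement) in 6.28% of all promoters, and neither was found in these 3. Both strands were searched, matches of different motifs did not overlap in these windows, and a match or its absence describes only these letters.

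Ly75 was higher in the treated mice at day 10 of both time-course experiments. In the larger experiment, the untreated day 10 mice had 47.9, 34.2, 32.0, 38.2 and 45.0 CPM and the 4 Day10DEC mice 71.0, 67.7, 61.9 and 68.5 CPM. In the smaller experiment, the untreated day 10 mice had 62.3, 77.1 and 56.9 CPM and the treated mice 99.96, 132 and 120.1 CPM. All treated mice were above all untreated mice of their own experiment, and the pooled difference was 0.79 on the log2 scale (SE 0.11), a ratio of 1.73. Among genes called by edgeR (Benjamini-Hochberg adjusted p below 0.05, the threshold used throughout) with an average log2 CPM above 4, this was the 9th of 399 rises at day 10 by size.

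At day 9 the experiments differed for Ly75. In the larger experiment, the untreated mice had 36.7, 39.0, 38.0 and 48.3 CPM and the 6 Day9DEC mice between 56.0 and 65.4 CPM with a median of 57.4 CPM, so that the groups did not overlap. In the smaller experiment, the 2 untreated mice had 69.3 and 65.9 CPM and the treated mice 68.1, 62.1 and 56.2 CPM, and the groups overlapped. Fitted alone, the larger experiment gave a log2 difference of 0.50 and the smaller one -0.15, against 0.30 (SE 0.10) for both. The treatment difference was larger at day 10 than at day 9 by 0.49 on the log2 scale (SE 0.15) over both experiments. At day 10 each experiment alone gave 0.78 (larger) and 0.82 (smaller), against 0.50 and -0.15 at day 9.

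**Figure D1:**
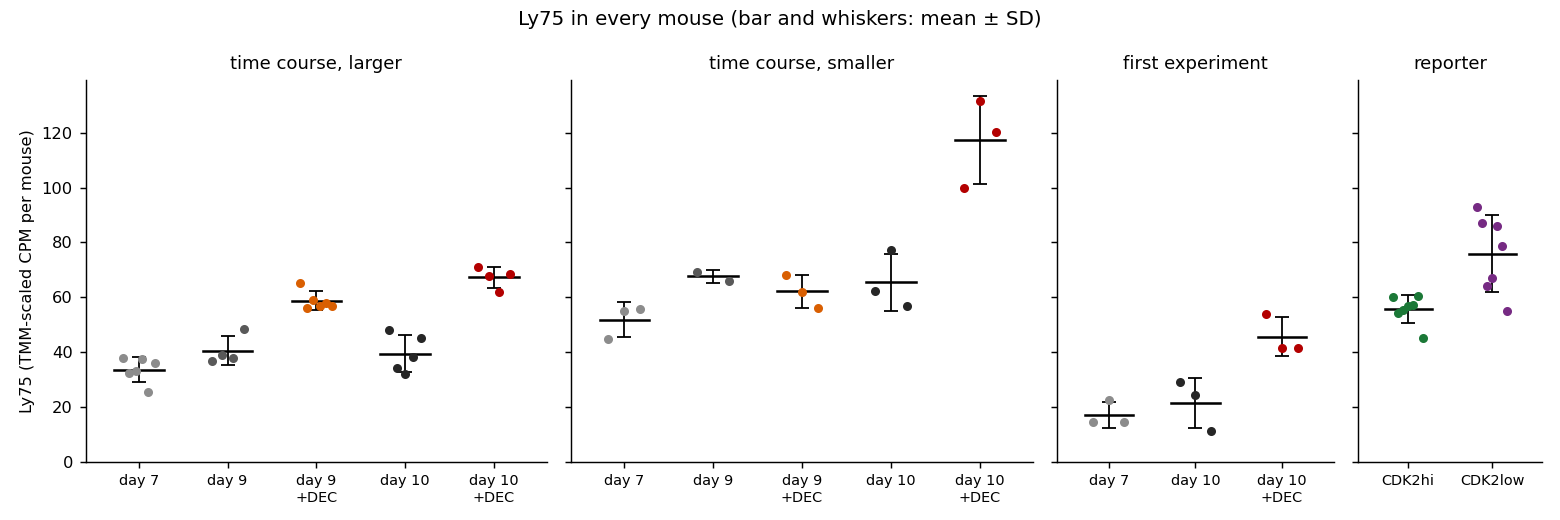
Ly75 in TMM-scaled CPM for every mouse (points) by group, with the mean and SD as bar and whiskers, in the larger and smaller time-course experiments, the first experiment and the reporter pools. The treated mice at day 10 sit at 61.9 CPM or more in the larger and 99.96 CPM or more in the smaller experiment, above the untreated mice of the same day, whereas at day 9 of the smaller experiment the groups overlap.

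The order of the Ly75 level over the groups was not the same in both experiments. In the larger experiment the medians ran from 34.5 CPM at day 7 (25.5 to 37.7 CPM) through 38.2 CPM at day 10 and 38.5 CPM at day 9 to 57.4 CPM in Day9DEC and 68.1 CPM in Day10DEC. Neighbours in this order overlapped except untreated day 9 and Day9DEC. In the smaller experiment the medians were 55.1 CPM at day 7, 62.1 CPM in Day9DEC, 62.3 CPM at day 10, 67.6 CPM at day 9 and 120.1 CPM in Day10DEC (99.96 to 132 CPM). Day 7 (44.6 to 55.9 CPM) and Day10DEC did not overlap with any other group there, and the 3 groups between them overlapped. A Ly75 UMI was found in 22.0% of the day 7 cells of the time course, 25.9% at day 9, 45.3% in Day9DEC, 25.7% at day 10 and 39.1% in Day10DEC. The median UMIs per cell were 6833, 6316, 12991, 6131 and 7400 in the same order, highest in both treated groups. When untreated cells were thinned to 2871 UMIs each, the shares were 9.79%, 12.9% and 12.2% at day 7, day 9 and day 10. Treated cells were not thinned, and the part of depth in their shares was not tested. A sum per mouse cannot tell more cells with the transcript from more transcript per cell, and no population that lacks Ly75 was gated here to measure free RNA.

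Zeb2, Cers6 and Rapgef4, all at least 8.48 Mb from Ly75, were lower in treated mice, but not on the same days. For Zeb2 the larger experiment had 46.9, 21.7, 32.6, 28.3 and 42.4 CPM at untreated day 10 and 7.89, 10.5, 7.03 and 6.21 CPM in Day10DEC. In the smaller experiment the untreated mice had 27.2, 39.2 and 33.7 CPM and the treated ones 17.3, 30.7 and 15.7 CPM. The groups were apart in the larger and overlapped in the smaller experiment, and the log2 difference of -1.46 (SE 0.22) for both was -2.15 in the larger and -0.71 in the smaller alone. It ranked 2nd of 241 falls at day 10. At day 9 the pooled difference of Zeb2 was -0.43 (SE 0.20) with overlapping mice in both experiments. Zeb2 overlaps an antisense gene, Zeb2os, and the sources used here do not state whether counting used the strand.

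Cers6 was lower in treated mice on both days. At day 9 the larger experiment had 20.9, 19.3, 16.2 and 16.4 CPM untreated and 8.43 to 13.4 CPM treated (median 9.72 CPM), and the smaller one 28.2 and 22.4 CPM untreated and 15.4, 17.2 and 14.9 CPM treated. At day 10 the larger experiment had 18, 22.5, 20.3, 25.3 and 25.3 CPM untreated and 7.54, 8.22, 9.14 and 8.90 CPM treated, and the smaller one 32.5, 43.2 and 26.0 CPM untreated and 12.2, 29.5 and 17.1 CPM treated. Only the day 10 groups of the smaller experiment overlapped. The log2 differences were -0.79 (SE 0.13) at day 9 and -1.16 (SE 0.14) at day 10, where Cers6 ranked 4th of 241 falls.

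Rapgef4 was lower at day 9 and not at day 10. The larger experiment had 27.6, 24.9, 22.4 and 25.1 CPM at untreated day 9 and 9.06 to 13.7 CPM in Day9DEC (median 10.3 CPM), and the smaller one 17.2 and 23.6 CPM against 9.37, 6.47 and 8.94 CPM. The groups were apart in both, with a log2 difference of -1.23 (SE 0.17), the 6th of 1563 falls ranked. At day 10 the treated mice had 17.7 to 33.5 CPM in the larger and 20.8, 20.8 and 27.7 CPM in the smaller experiment. These overlapped with the untreated ranges of 10.2 to 27.8 CPM and 15.2 to 30.1 CPM, and the difference was 0.13 (SE 0.17).

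The share of cells in G1 moved with the day 9 groups. Its median per mouse was 22.5% in Day9DEC and 54.3% in untreated mice of the larger experiment, and 17.6% and 46.8% in the smaller one. Naive or memory B cell markers, 7 genes, also summed to less in Day9DEC (100.3 to 205 CPM) than at untreated day 9 (249 to 435 CPM), as did the 7 T cell markers (4.60 to 11.1 CPM and 17.2 to 23.5 CPM). At day 10 both lists overlapped between treated and untreated mice. The part of G1 cells or of these lists in the results was not tested. With G1 cells alone the day 9 difference was -0.43 (SE 0.16) for Rapgef4, -0.83 (SE 0.27) for Cers6 and 0.65 (SE 0.16) for Ly75, and that of Zeb2 was 0.75 (SE 0.29). At day 9 in G1 cells 4 of 9 members (Baz2b, Cers6, Ly75 and Psmd14) and 8.81% of genes were called. At day 10, where the medians of G1 cells were 51.3% treated and 54.6% untreated in the larger and 39.0% and 44.4% in the smaller experiment, G1 cells alone gave -1.58 for Zeb2, -1.33 for Cers6, 0.75 for Ly75 and -0.15 for Rapgef4.

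**Figure D2:**
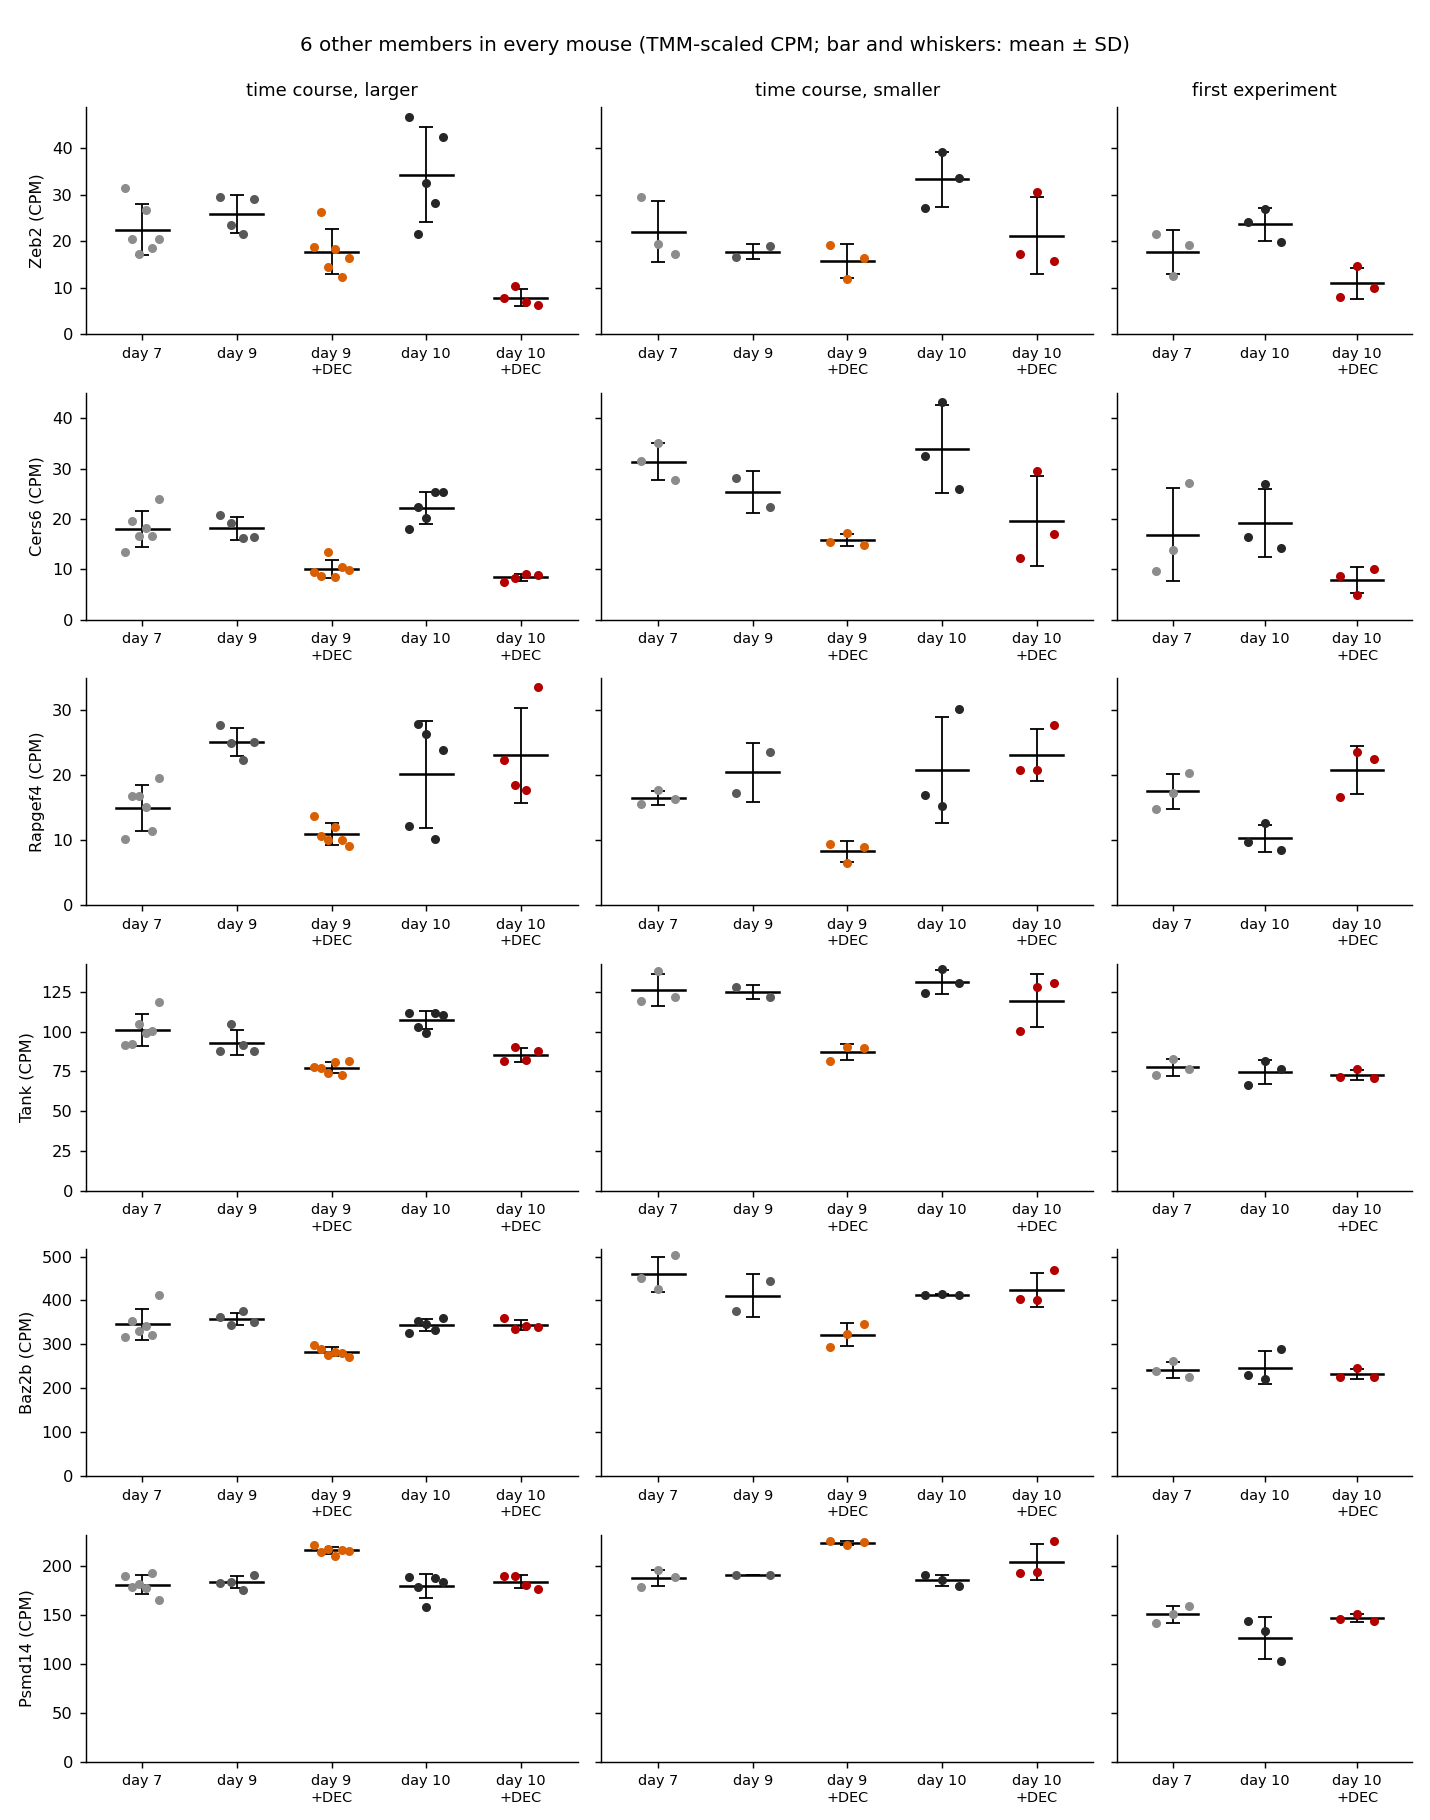
TMM-scaled CPM of Zeb2, Cers6, Rapgef4, Tank, Baz2b and Psmd14 for every mouse (points) by group, with the mean and SD as bar and whiskers, in the larger and smaller time-course experiments and the first experiment. Rapgef4 is lower in every Day9DEC mouse than in the untreated day 9 mice, and Zeb2 in the larger experiment drops to between 6.21 and 10.5 CPM in Day10DEC.

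The members nearest to Ly75 had small treatment differences at day 10. On that day, Baz2b had ranges of 327 to 359 CPM untreated and 335 to 361 CPM treated in the larger experiment, Rbms1 32.1 to 37.9 CPM and 27.2 to 35.2 CPM, and Psmd14 158 to 189 CPM and 176 to 189 CPM. These ranges overlapped. In the smaller experiment Baz2b and Rbms1 overlapped too, but Psmd14 was apart, with 179 to 190.3 CPM untreated and 193 to 225 CPM treated. The log2 differences over both experiments were 0.02 (SE 0.05) for Baz2b, 0.00 (SE 0.07) for Rbms1 and 0.07 (SE 0.04) for Psmd14, and with G1 cells alone they were -0.17, -0.23 and 0.16, of which that of Baz2b passed the threshold. Tank was lower by -0.26 (SE 0.06), from 99.2 to 112 CPM in untreated to 81.3 to 90.4 CPM in treated mice of the larger experiment, with overlap in the smaller. At day 9 the differences were -0.34 (SE 0.05) for Baz2b, -0.35 (SE 0.06) for Tank, 0.24 (SE 0.04) for Psmd14 and 0.20 (SE 0.07) for Rbms1, in both directions. For Cobll1 the differences were -0.55 (SE 0.23) at day 9 and -0.54 (SE 0.29) at day 10, at levels of 0.735 to 5.58 CPM per mouse. Cd302, the closest member, reached 0 to 2.84 CPM and 0 to 13 UMIs per mouse over all experiments and was left out of the fits by the filter on low counts. Without that filter, the 95% intervals of its treatment difference ran from -0.65 to 1.35 at day 9 and from -1.18 to 0.84 at day 10.

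The calls of the members were set beside those of all genes. At day 9 the fit called 8 of the 9 members tested and 47.4% of 10220 genes, and at day 10 it called 4 of 9, namely Zeb2, Cers6, Ly75 and Tank, and 8.55% of all genes. Fitted alone, the smaller experiment called Ly75 but not Zeb2, Cers6 or Tank at day 10, and 22 of 10334 genes. Treated and untreated mice did not overlap in 6 of 9 members at day 9 and 4 of 9 at day 10 of the larger experiment, where 28.3% and 10.3% of genes did not, and in 7 and 2 of 9 in the smaller, where 54.5% and 12.2% of genes did not. Nothing is read from these counts of members, which the treatment values chose. Over all 52 tested genes that start within the interval, the median log2 change at day 9 was -0.00 against 0.01 over all genes. On that day the fit of both experiments called 32 of them (61.5%), of which 18 rose and 14 fell, or 24 of 43 (55.8%) without the members. At day 10 it called 6 of 52 (11.5%), or 2 of 43 (4.65%) without the members, with a median of 0.01 against -0.00 over all genes.

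Genes close to Ly75 that were called went both ways, as did those called over the genome. Of the 8 tested genes that start within 2 Mb of Ly75, Ly75 included, 6 were called at day 9 (47.4% of all genes), 4 higher and 2 lower. At day 10, 2 of them were called (8.55% of all genes), Ly75 higher and Tank lower. Baz2b starts head to head with another gene, Marchf7. Within 10 Mb, 4 of 35 genes (11.4%) were called at day 10, 1 higher and 3 lower, against 8.55% of all genes. Most of the genes called in these windows at day 10 are members, which the treatment values chose. Nothing is read from these counts.

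Dpp4, which encodes the cell-surface peptidase CD26 and starts 2.03 Mb from Ly75, is no member, but its treatment differences were larger than those of the 9 members tested. In the larger experiment it had 14.9, 10.1, 12.4 and 10.4 CPM at untreated day 9 and 1.72 to 3.57 CPM in Day9DEC, and 9.63 to 11.1 CPM at untreated day 10 and 1.42 to 3.51 CPM in Day10DEC. It fell by 2.23 (SE 0.17) at day 9 and by 2.14 (SE 0.21) at day 10 on the log2 scale. Dpp4 was also lower in untreated mice at day 10 than at day 7 (-0.49, SE 0.14). That call was lost with either experiment alone, with G1 cells alone (-0.29) and with cells with the receptor pairing only (-0.38). It was also lost with assignment by the highest hashtag, without the term for the experiment and in the fit of only the groups compared. In the comparisons described below Dpp4 was at -0.34 (SE 0.09) in Ly75-detected cells and -0.70 (SE 0.11) in cells with the receptor pairing. In CDK2hi against CDK2low cells it was at -1.12 (SE 0.20). Ly75, Dpp4 and Cers6 were the 3 of 45 interval genes that passed the threshold in the same direction at both days and in the first experiment (6.67%), as did 0.518% of 9072 genes over the genome. This pattern is the one for which Dpp4 is named here, and nothing is read from the count.

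**Figure D3:**
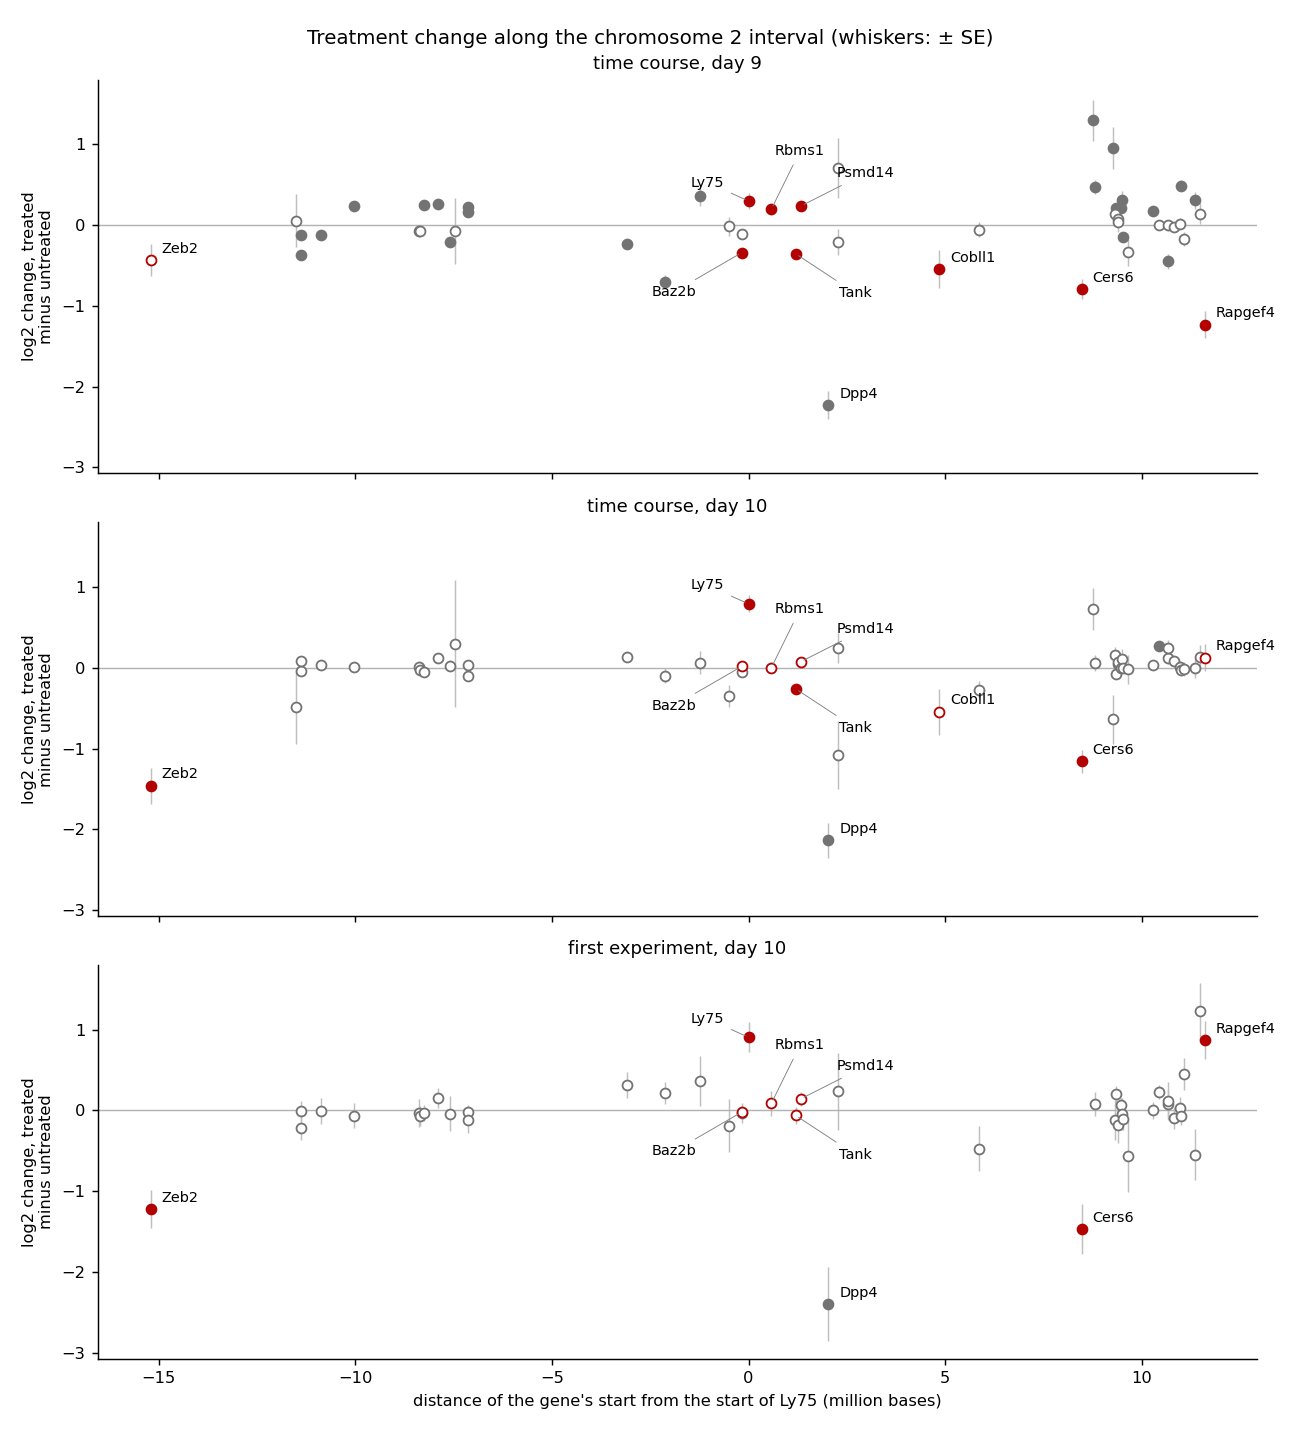
Log2 change of treated against untreated mice (whiskers, SE) for each tested gene of the interval against the distance of its start from that of Ly75 in Mb, at day 9 and day 10 of the time course and at day 10 of the first experiment, with members in red and filled points past the threshold, a description only. Ly75 and the distant Zeb2 (-1.46 at day 10) and Cers6 (-1.16) stand away from 0, as does Dpp4 (-2.14), and most genes between them lie near 0 at day 10.

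Without treatment, the fit of all 39 mice called no member over time. From day 7 to day 9, edgeR's quasi-likelihood test with Benjamini-Hochberg adjustment called 0.127% of genes and 0 of 9 members, and from day 7 to day 10 it called 4.41% of genes and 0 of 9 members. At an unadjusted p below 0.05 there were 3 and 4 members, and DESeq2 called 0 in both. With G1 cells alone Rapgef4 was called at day 9 (0.67) and day 10 (0.58), where 0.112% and 1.98% of genes were. At day 10 Zeb2 was called under 3 other settings: cells with the receptor pairing only (0.78), low-count genes kept (0.58) and a fit of the 2 groups alone (0.58). The largest estimate at day 9 was 0.63 for Rapgef4 (SE 0.17, adjusted p = 0.160 by edgeR). In the larger experiment its mice had 10.1 to 19.5 CPM at day 7 and 22.4 to 27.6 CPM at day 9, without overlap, as for 1.57% of genes. In the smaller experiment they overlapped. The largest estimates at day 10 were 0.57 for Zeb2 (SE 0.18, adjusted p = 0.0578, 95% interval 0.22 to 0.93), 0.48 for Rapgef4 (SE 0.17, adjusted p = 0.0915) and 0.29 for Ly75 (SE 0.11, adjusted p = 0.114), all upward. In the first experiment, edgeR called 0.65% of genes and 0 of 8 members from day 7 to day 10 (3 at an unadjusted p below 0.05, and 0 by DESeq2). There Ly75 (0.51) and Zeb2 (0.49) were also upward, but Rapgef4 had 14.8, 17.3 and 20.3 CPM at day 7 and 9.64, 12.6 and 8.53 CPM at day 10, without overlap and downward by -0.60 (SE 0.26, adjusted p = 0.482 by edgeR).

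In the first experiment, whose mice were not in the time-course fit, 4 of the 8 members tested passed the threshold, and 1.95% of 9078 genes did. The members were chosen with these values known too, so nothing is read from the count. Ly75 had 28.9, 24.3 and 11.4 CPM in untreated and 54.0, 41.7 and 41.4 CPM in treated mice at day 10, a difference of 0.91 (SE 0.19) in a treated group that the study describes as expressing its product. Zeb2 had 24.1, 27.0 and 19.9 CPM and 8.05, 14.7 and 10.02 CPM, a difference of -1.22 (SE 0.23). In both genes the groups did not overlap, which held for 4 of the 8 members and for 17% of all genes tested. The lowest untreated day 10 values rest on 4 UMIs for Ly75 and 7 for Zeb2.

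Cers6 had 16.4, 27.0 and 14.2 CPM in untreated and 8.76, 4.99 and 10.02 CPM in treated mice of the first experiment, a difference of -1.47 (SE 0.31). Rapgef4 had 9.64, 12.6 and 8.53 CPM and 16.6, 23.5 and 22.4 CPM, a difference of 0.87 (SE 0.23), whereas at day 10 of the time course its difference was 0.13. The lowest untreated values rest on 5 UMIs for Cers6 and 3 for Rapgef4. The other members had differences between -0.06 and 0.14. Cobll1 had 0, 1.74 and 0 CPM in untreated and 2.37, 2.25 and 2.13 CPM in treated mice, from at most 10 UMIs per mouse, and was not tested. Among the other interval genes Dpp4 alone of 37 passed, with a difference of -2.40 (SE 0.46).

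The calls of the first experiment depended on single mice. Replicate 2 of the untreated day 10 group held 1157 of the group's 1883 cells, and without it edgeR called 0 of 8 members (3 at an unadjusted p below 0.05) and 0.596% of all genes, with 0.91 for Ly75, -1.08 for Zeb2, -0.97 for Cers6 and 1.15 for Rapgef4. Of 9 fits that each left out 1 mouse, this was the one in which Ly75, Zeb2, Cers6 and Dpp4 lost their calls. Rapgef4 lost its call in 5 of them, also without replicate 1 or 3 of the untreated day 10 group or replicate 2 or 3 of the treated group (0.79 to 0.83). With all mice DESeq2 called 3 of the 8 members and 1.1% of genes, Rapgef4 (0.90) no longer among them. Rapgef4 also lost its call with assignment by the highest hashtag (0.70) and in the fit of only the groups compared (0.87). With G1 cells alone edgeR called 0 of 8 members, with 4 at an unadjusted p below 0.05, and 0.97% of genes, and the differences were 1.01 for Ly75, -1.15 for Zeb2, -1.12 for Cers6 and 0.83 for Rapgef4. The sum of 4 Y-linked genes, a list chosen after its values were seen, moved with the groups of this experiment, with 10.4 to 30.4 CPM at day 7, 52.6 to 62.6 CPM at untreated day 10 and 159.7 to 187 CPM in treated mice. In the time course it was 0 to 3.07 CPM in the larger and 245 to 315 CPM in the smaller experiment, with no gap between treated and untreated mice in either. The 6 plasma cell markers also moved with the day 10 groups of the first experiment, with 959 to 1034 CPM untreated and 1152 to 1657 CPM treated, and the T cell markers with 13.1 to 19.2 CPM and 8.09 to 12.5 CPM. The part of these lists in the result of the first experiment was not tested.

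Cells of untreated mice in which a Ly75 UMI was found were compared with the other cells of the same mouse, a split that does not use the treatment. Across 23 mice, 53.6% of 9035 genes (2190 higher and 2651 lower) and 4 of the 7 members tested were called. The count of members is near the share of all genes, and nothing is read from it or from its directions. Rapgef4 was at -0.65 (SE 0.08), Baz2b at -0.34 (SE 0.03), Zeb2 at 0.22 (SE 0.08) and Psmd14 at 0.08 (SE 0.03). The cells with a Ly75 UMI were deeper, with a median over mice of 10877 UMIs per cell against 7766. When cells were thinned to 2871 UMIs each, which left out 1792 shallower cells, 2 of 7 members and 7.55% of genes were called, from 24 to 128 cells with a Ly75 UMI and 229 to 722 others per mouse. Zeb2 was higher by 0.56 (SE 0.15, adjusted p = 0.0108 by edgeR) and Tank by 0.32 (SE 0.07, adjusted p = 0.00128 by edgeR). Rapgef4 at 0.05 (SE 0.15) and Baz2b at 0.03 (SE 0.04) were not called at equal UMIs per cell, and neither were Cers6, Rbms1 and Psmd14. The unthinned call of Zeb2 was lost when the larger experiment was fitted alone (0.16).

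Cells whose contigs paired the heavy and light chains of the transferred receptor were set against the other cells of the same 39 mice. Here 68.2% of genes and 6 of 8 members were called, namely Rapgef4 (-0.95), Baz2b (-0.43), Zeb2 (-0.35), Tank (-0.23), Rbms1 (-0.11) and Psmd14 (0.07), while Ly75 (-0.12, SE 0.06, adjusted p = 0.0645 by edgeR) and Cers6 (-0.09) were not. In the smaller experiment alone all 8 were called with 73.5% of genes, Ly75 at -0.21 and Cers6 at -0.32 among them. In the larger alone 4 of 8 were called with 41.7% of genes, without Rbms1 and Psmd14, and Cers6 was at 0.14. The cells with the pairing had 11222 UMIs per cell and the others 6750, as medians over mice, and most of the others had no full pair of chains. Against only those other cells that had both chains, an alternative chosen after seeing the data and possible in 31 mice, Zeb2 alone of 8 members and 2.35% of genes were called, Zeb2 at -0.76 (SE 0.17, adjusted p = 0.00651 by edgeR), and Ly75 was at 0.00 (SE 0.11).

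Among treated cells at 72 h, 7 of the 9 members tested were lower where CDK2 was active, as were 38.6% of all genes. Nothing is read from counts of members in this comparison. Cells were not selected by zone here, whereas the study compared cells with a dark-zone expression phenotype. The part of zone was not tested. The CDK2hi and CDK2low cells were in separate gene-expression libraries. CDK2 class and library therefore cannot be told apart, and pairing by mouse does not remove this. Ly75 had 45.2 to 60.6 CPM in CDK2hi cells (median 56.8 CPM) and 55.1 to 93.0 CPM in CDK2low cells (median 78.6 CPM) of the same 7 mice, a fall by 0.44 (SE 0.05, adjusted p = 1.55e-08 by edgeR). Rapgef4 had 4.11 to 12.3 CPM and 27.2 to 57.8 CPM, without overlap, a fall by 2.23 (SE 0.10, adjusted p = 5.74e-17 by edgeR). Zeb2 had 6.35 to 12.3 CPM and 9.35 to 26.7 CPM, with overlap between mice, and fell by 0.82 (SE 0.11, adjusted p = 1.45e-07 by edgeR).

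All 9 members tested passed in this comparison, against 75.1% of 10120 genes. Cobll1 fell by 1.22 (SE 0.21), Baz2b by 0.55 (SE 0.03) and Tank by 0.36 (SE 0.04), and Psmd14 rose by 0.26 (SE 0.03). Cers6 at -0.19 (SE 0.08, adjusted p = 0.0437 by edgeR) and Rbms1 at 0.12 (SE 0.05, adjusted p = 0.0269 by edgeR) lost their calls without pairing by mouse, where adjusted p was 0.271 and 0.0925. Leaving out single mice kept Cers6 past the threshold in 3 and Rbms1 in 4 of 7 fits, and Cers6 lost its call without replicate 1, 2, 4 or 7, Rbms1 without replicate 1, 3 or 6. The interval as a whole had 38 of 49 genes called (77.6%) with a median of -0.09 against -0.02 over all genes. The pools differed in the share of G1 cells, with medians of 16.2% in CDK2hi and 56.5% in CDK2low, and in the naive or memory B cell list, with 101 to 182 CPM and 334 to 545 CPM. The T cell markers, with 5.30 to 9.79 CPM and 13.0 to 85.5 CPM, and the GC B cell markers, with 2241 to 2416 CPM and 2477 to 2685 CPM, did not overlap between the pools either, and the part of these differences in the result was not tested.

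**Figure D4:**
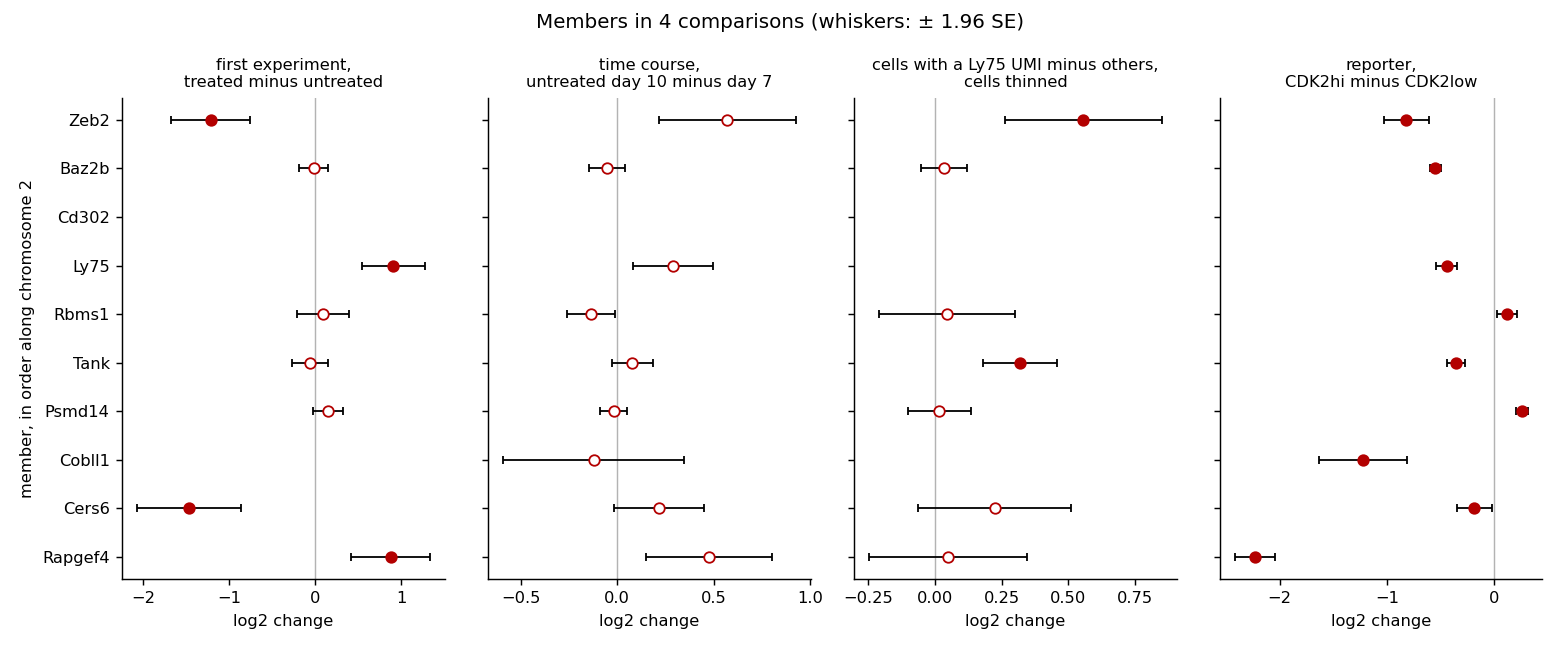
Log2 change of each member in order along chromosome 2 (points, with 95% intervals as whiskers) in the first experiment, in untreated mice from day 7 to day 10, in thinned cells with a Ly75 UMI against others, and in CDK2hi against CDK2low cells, with filled points past the threshold, a description only in the first. Zeb2 lies at -1.22, 0.57, 0.56 and -0.82 in these, and the immediate neighbours of Ly75 lie near 0 in the first.

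Levels were correlated with Ly75 across the 39 time-course mice after terms for group and for experiment, but not for their combination, were removed. Differences between the experiments within a group therefore remain in the pooled values. Only 51 of the 10219 genes ranked lie in the interval, so nothing is read from which genes came first. The highest Pearson correlations of log2 CPM were 0.70 for 1700109H08Rik, 0.69 for H2-DMb1, a chaperone subunit of MHC class II loading, 0.65 for Nfkb1, an NF-kappaB subunit, 0.65 for Phip and 0.64 for Gstcd, and none of these is on chromosome 2. Within the larger and the smaller experiment these were 0.80 and 0.49, 0.44 and 0.68, 0.39 and 0.73, 0.55 and 0.68, and 0.63 and 0.62. The lowest were -0.71 for Ywhaz, -0.69 for Mid1ip1, -0.66 for Taldo1, -0.64 for Cfl1 and -0.64 for Uqcrh, between -0.32 and -0.79 within an experiment. Of the members Tank came highest at 0.46 (rank 98 of 10219 genes), and it was 0.15 within the larger and 0.55 within the smaller experiment. Zeb2 had 0.37 (0.50 and 0.15 within them), Psmd14 0.30 (0.31 and 0.34) and Cers6 0.23 (-0.09 and 0.71). The others were Baz2b at 0.14 (0.09 and -0.11), Cobll1 at 0.07 (-0.11 and 0.15), Rapgef4 at 0.03 (-0.10 and -0.31) and Rbms1 at 0.00 (-0.10 and 0.28). The pooled value of Rapgef4 thus had the other sign to both experiments, and that of Baz2b was above both. The median over the interval was 0.03 against -0.01 over all genes. The points share sequencing pools and depth, and the values describe these mice only.

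Paralogues and partners of the members outside the interval, 35 genes of which 29 were tested in the time course, were followed for comparison. At day 9, 22 of 29 were called (47.4% of all genes), 13 higher and 9 lower, among them all 10 tested partners of Psmd14 in the proteasome regulatory particle, which rose by 0.20 to 0.38 where Psmd14 was at 0.24. Of other families, Rapgef6, an exchange factor related to Rapgef4, changed by -0.39, Zeb1, the paralogue of Zeb2, by -0.25 and Traf3, a partner of Tank, by -0.27. The most expressed genes of the Baz, ceramide synthase and Rbms families did not pass the threshold, with Baz1a at -0.01, Cers5 at -0.11 and Rbms2 at -0.28, but Baz2a (-0.30), Baz1b (0.26) and Cers2 (-0.18), named here after their values were seen, did. At day 10, 4 of 29 were called (8.55% of all genes), all higher. The 3 ceramide synthases tested and Zeb1 were not among them. Cobl, a relative of Cobll1 that is named here after its values were seen, rose by 1.44 at day 9, 1.55 at day 10 and 1.94 in the first experiment. In CDK2hi against CDK2low cells 24 of 29 were called (75.1% of all genes), 13 higher and 11 lower, with the 10 proteasome subunits higher. The mannose receptor relatives Mrc1 and Mrc2 were below 0.2 CPM on average and were not tested.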

How the data were processed

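Hashtag, gene and contig libraries of GC B cells from lymph nodes were analysed. Per the labels, the authors used Cell Ranger 6.0.1, Seurat 5.1.0 and the mm39 build, whereas the file headers name later versions of Cell Ranger. They deposited matrices of raw UMI counts, without normalization, for genes and for hashtags in each cell, with tables of filtered contigs and a list of the hashtags and group of each mouse. That deposited list and the names of genes and cells are text and were classed as other. No fold changes or p-values of the authors were used.

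Each cell was given to the mouse whose hashtags HTODemux (Seurat 5.3.0, positive quantile 0.99, hashtags averaging at least 1 UMI) called positive. Cells positive for more hashtags than a mouse carries, 2200, 1936, 2705, 975 and 507 in the pools, were removed. Other cells that matched no mouse were left out too. Doublets within a mouse were not searched for. Cells with fewer than 200 genes or 10% or more of mitochondrial UMIs were removed. The mitochondrial limit took 3036 of 13187 assigned cells in the smaller and 332 of 13976 in the larger experiment. Counts were summed per mouse, or per mouse and class with at least 10 cells, and the sums were tested with the quasi-likelihood test of edgeR 4.0.16 under R 4.3.3 after filterByExpr and TMM scaling. Adjustment was by Benjamini-Hochberg over all genes tested, with a threshold of 0.05. The SE given for an edgeR fit is the absolute log2 change divided by the square root of the test's F statistic. The 95% intervals of log2 changes are 1.96 SE to either side. They are approximate, since they take no account of the limited degrees of freedom. The time-course fit held all 39 mice with a term for the experiment, the first experiment all 9 mice, and comparisons within mice had the mouse as a block. Depth ran from 349784 to 20394909 UMIs per mouse, so that low genes carry a large counting error. P-values measure the spread between mice or, where the mouse was a block, the spread of the within-mouse differences. Scripts were tested on simulated data.

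The members and lists were chosen with earlier results of these data known. Named genes were the members, other interval genes called in the same direction in all 3 treatment contrasts, the 5 genes most and least like Ly75, and the most expressed paralogue of a family. The 2 reporter pools of a mouse were paired by its name in the deposited list, and their deviations correlated at 0.132 to 0.465, each best with its own mouse in 7 of 7. Promoter sequences were read from the GRCm39 genome at GENCODE transcript starts. Alternatives were DESeq2 1.42.0, other normalization and filters, each experiment alone, G1 cells, and thinned cells. The remaining steps ran in Python 3.11.15 (numpy 2.4.6; pandas 2.3.3; scipy 1.17.1).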

Additional observations from a re-analysis of the deposited data

Results flagged for a closer look

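Of 70 groups of 4 to 10 mice of the 10 members, 4 had a mouse far from the others by Dixon's criterion, where chance alone gives about 5% of groups. The highest Ly75 value of Day9DEC in the larger experiment, 65.4 CPM, lay above the next at 59.2 CPM with a gap of 0.666 of the range. The lowest Ly75 value of the CDK2hi pool, 45.2 CPM, lay below the next at 54.3 CPM with a gap of 0.592 of the range. Cobll1 at untreated day 9 of the larger experiment had a highest mouse at 5.30 CPM with the next at 3.80 CPM, a gap of 0.869 of the range. Cd302 at untreated day 10 of that experiment had a highest mouse at 2.09 CPM with the next at 0.776 CPM, a gap of 0.784 of the range.

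Rapgef4 was lower in every treated mouse at day 9 of both time-course experiments, whereas at day 10 of the first experiment every treated mouse was higher, by 0.87 on the log2 scale. The difference between the days in these separate experiments was not tested. In the first experiment the untreated day 10 mice (8.53 to 12.6 CPM) were below all day 7 mice (14.8 to 20.3 CPM). The treated mice (16.6 to 23.5 CPM) overlapped with those of day 7, and the call of Rapgef4 there was lost under several alternatives. Within the time course, the treatment difference of Rapgef4 went from -1.23 at day 9 to 0.13 at day 10, a change of 1.36 (SE 0.24).

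A transgene feature named Rtta, which the comparisons did not use, was found in the matrix of the first experiment in 20 of 5574 treated cells (0.359%, exact 95% binomial interval 0.219% to 0.554%). It was found in 2 of 1883 untreated cells at day 10 (0.106%, interval 0.0129% to 0.383%, which overlaps with that of the treated cells) and in 0 of 3224 cells at day 7, which at a limit of 3 counts allows a share of cells with a UMI of up to 0.0931% (upper end of the exact interval 0.114%). A treated mouse had 3 to 9 and an untreated day 10 mouse 0 to 1 of these UMIs. Cells are pooled over the mice of a group, and the intervals and the limit cover counting error only.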

How the results depend on the processing

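Of the counts of calls and interval shares, 155 of the values under alternatives stayed within 1.5 times of the reported ones and 51 moved. With the smaller experiment alone, 2149 genes and 21.8% of the interval were called at day 9, 22 and 3.64% at day 10, 0 and 3 genes in untreated mice at day 9 and day 10 (interval 0 at day 10), and 33.3% of the interval for Ly75-detected cells. With the larger alone, 0 interval genes were called in untreated mice at day 10 and 3660 genes for the receptor pairing. G1 cells alone gave 787 genes and 19.1% at day 9, 2.13% of the interval for untreated mice at either day, 177 genes for untreated day 10, and 76 genes and 2.63% in the first experiment. Without the term for the experiment the values were 2680 genes and 32.7% at day 9, 217 genes at day 10, and 5 and 77 genes (interval 0 at day 10) in untreated mice. Without the filter on low counts the interval shares were 33.3% at day 9, 6.45% at day 10, 3.23% in untreated day 10 mice, 28.6% for Ly75-detected cells and 34.4% for the pairing, with 21 genes called in untreated mice at day 9 and 280 in the first experiment. DESeq2 called 25 genes in untreated mice at day 9 and 100 in the first experiment. Cells with the pairing only gave 4 genes in untreated mice at day 9. In the first experiment, where these were 583 cells, they gave 27 of 3317 genes tested and 0 of 15 interval genes. For untreated day 10, RLE normalization gave 1.92% of the interval, assignment by the highest hashtag 0, and the fit of only the groups compared 256 genes and 2.08%. Windows around Ly75 gave 25% (2 Mb) and 21.4% (5 Mb) at day 10, 0 (2 Mb) in untreated day 10 mice, and 16.7% (5 Mb) and 7.04% (20 Mb) in the first experiment. Thinned cells gave 492 genes and 9.09% for Ly75-detected cells, and other cells with both chains 180 genes and 5.13% for the pairing. With 1 mouse left out, the first experiment gave 55 to 235 genes and 0 to 11.1% of the interval, lowest without Day10 replicate 2 (105 genes without Day10 replicate 1), and the CDK2 pools 7199 to 7566 genes and 73.5% to 77.6%.

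Of values of single genes that passed the threshold in the reported fit, 7 changed sign. Ly75 at day 9 was -0.15 in the smaller experiment alone, Cobll1 at day 9 was 0.58 in G1 cells, Rapgef4 and Baz2b in Ly75-detected cells were 0.0482 and 0.0333 after thinning, and against other cells with both chains Baz2b was 0.00913, Tank 0.0207 and Psmd14 -0.0203. The causes were not tested. Another 32 values changed sign where the reported fit had made no call, between -0.34 and 0.75 under the alternative, the highest that of Zeb2 at day 9 in G1 cells, and 1 of them passed under the alternative (Baz2b at day 10 in G1 cells, -0.17). Of all other values of single genes, these 32 included, 740 stayed on their side of the threshold or, for the treatment differences of the time course, within 1 SD of the reported value, 49 lost a call, 8 gained a call, and 18 treatment differences of the time course moved by more than 1 SD. Without the replicate block by mouse, 4531 genes were called for Ly75-detected cells, 5962 for the pairing and 7052 for the CDK2 pools, and Zeb2 lost its call in Ly75-detected cells (0.23) and in the pairing (-0.30), Psmd14 in the pairing (0.06), and Cers6 and Rbms1 in the CDK2 pools (-0.15 and 0.12). Depth limits Cd302 and Cobll1 most, with at most 13 and 56 UMIs per mouse. It also limits the untreated day 10 group of the first experiment, whose lowest mouse had 4 UMIs for Ly75 and 3 for Rapgef4.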
